A study of Rattus norvegicus with 12 samples.

Results

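Zinc and iron are bound, sensed, stored and carried by the products of the 10 genes examined: the metallothioneins Mt1 and Mt2A, the zinc sensor Mtf1, the zinc exporter Slc30a1, the ferritin subunits Fth1 and Ftl1, the iron importers Tfrc and Slc11a2, the iron exporter Slc40a1 and the iron sensor Ireb2. They were chosen by name from the array's gene annotation, where Mt1 carries its older name Mt1a, and they are 10 of the 36181 genes and transcripts on the array. All 10 had a probe, 18 probes in all. Testing required a signal well above background, as the extraction software flags it, on 6 or more of the 12 arrays, and 13 of the 18 probes, with at least 1 for each of the 10 genes, passed. The fipronil group comprised 6 samples of N27 cells kept in 25 µM fipronil for 24 h, and the control group comprised 6 samples of N27 cells that were not treated. N27 is an immortalised rat cell line labelled as dopaminergic, and fipronil is a phenylpyrazole insecticide that blocks GABA-gated chloride channels. Total RNA was labelled with Cy3 and hybridised to one-colour Agilent rat arrays. The labels name neither a vehicle in the control cells nor separate cultures behind the replicates, so the p-values may rest on technical spread between samples alone.

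Metallothioneins are small cysteine-rich proteins that bind zinc and copper. When free zinc rises, the transcription factor MTF-1 binds metal response elements in the promoters of the metallothionein genes and of Slc30a1, and their transcripts increase. Cellular iron is controlled mainly after transcription: when iron is scarce, the iron regulatory proteins IRP1 and IRP2 bind iron responsive elements, which stabilises the transferrin receptor transcript and holds back translation of both ferritin subunits. Ferritin stores iron in a form that cannot take part in Fenton chemistry, and dopaminergic neurons of the substantia nigra are known for their high iron content. Much of ferritin's control is therefore not visible in transcript levels, which are what the arrays measured.

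Signal levels differed between the slides, and the slides nearly coincided with treatment. Slide 1 held 2 fipronil and 2 control arrays, slide 3 the other 4 fipronil arrays and slide 2 the other 4 control arrays. The 75th percentile of the processed signal, an intensity with no scaling between arrays, was 111 to 140 on the fipronil arrays of slide 3 and 245 to 246 on those of slide 1, against 379 to 472 on the control arrays of slide 2 and 269 to 279 on those of slide 1. Between 40.8% and 45.8% of spots stood well above background on the fipronil arrays, against 46.4% to 50.02% on the control arrays. Values below are log2 processed signal minus the array's own 75th percentile, and a difference is fipronil minus control. Because each array is scaled to itself, less of a transcript per cell cannot be told apart from fewer cells that make it. Differences over all 12 arrays are therefore followed by the difference within slide 1, which alone holds both treatments, and by a limma fit over the 12 arrays that blocks on slide and so draws its difference from slide 1. How far slide contributes to each difference over all arrays was not tested, and outside slide 1 slide and treatment cannot be told apart.

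None of the 10 genes passed the threshold of an adjusted p of 0.05 in limma over the 12 arrays, where 5.01% of the 13542 genes tested did. There were 0 of 10 higher and 0 of 10 lower, against 2.24% and 2.77% of all genes. In the same test on single probes 0 of the 13 tested probes passed, where 5.30% of the 16291 probes tested did. At an unadjusted p under 0.05 there were 3 of 10, Ftl1, Slc11a2 and Slc40a1, against 25.0% of all genes tested. Slc40a1 entered the test through the control arrays, 5 of which stood well above background against 1 fipronil array, so its p compares control signal with fipronil values mostly at background. The differences were positive for 4 genes and negative for 6, with a median of -0.16 against -0.077 over all genes. In 1 of the 10, Slc11a2 on the probe used, the values of the groups did not overlap, with every fipronil array lower, which 2.55% of all genes showed. The opposite, every fipronil array higher, held for 0 of 10 and for 1.63% of all genes. With slide as a fixed block 0 of 10 passed, where 0.0886% of all genes did, and 4 of 10 had an unadjusted p under 0.05 (Mt2A, Mtf1, Ftl1 and Tfrc), against 19.0% of all genes. With slide as a random block 0 of 10 passed as well, where 0.155% of all genes did. Within slide 1 the values did not overlap for 7 of the 10 genes. Both fipronil arrays were lower for Mtf1, Tfrc, Slc11a2 and Ireb2, a pattern that 28.5% of all genes showed, and both were higher for Mt1, Mt2A and Ftl1, as for 25.2% of all genes.

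**Figure D1:**
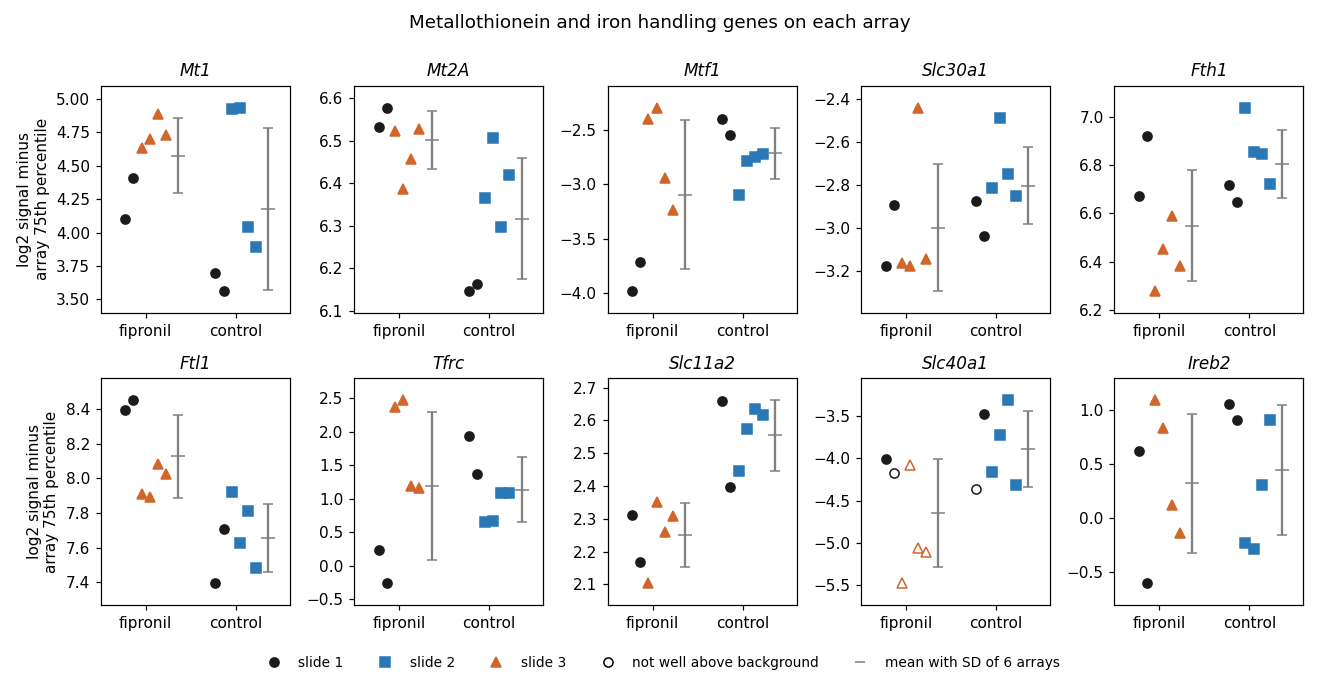
Log2 processed signal minus the array's 75th percentile (vertical axes, one scale per gene) for the 10 genes on the 6 fipronil arrays (left of each panel) and the 6 control arrays (right). Points are single arrays, shaped and coloured by slide, open where the probe was not well above background, and grey bars are the mean with SD. Slc11a2 is the gene whose fipronil and control values do not overlap on the probe used, and Tfrc is low on the fipronil arrays of slide 1 and high on 2 of those of slide 3.

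The metallothioneins were measured far above background on every array, and the mean of both was higher on the fipronil arrays by amounts that did not pass the test. Their promoters and that of Slc30a1, known targets of MTF-1, carry matches to the metal response element. The 250 bases before each start site are given here from RefSeq on the rat assembly GRCr8, at chr19:10832976-10833225 on the minus strand for Mt1, chr19:10838709-10838958 on the minus strand for Mt2A and chr13:106021769-106022018 on the plus strand for Slc30a1. Capitals mark the searched motifs TGCACNC and TGCGCNC on either strand.
Mt1: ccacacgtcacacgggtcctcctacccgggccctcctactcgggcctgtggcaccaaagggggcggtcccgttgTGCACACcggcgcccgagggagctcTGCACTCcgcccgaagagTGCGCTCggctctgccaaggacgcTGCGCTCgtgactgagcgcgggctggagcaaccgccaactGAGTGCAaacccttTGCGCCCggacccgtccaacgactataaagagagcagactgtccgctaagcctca
Mt2A: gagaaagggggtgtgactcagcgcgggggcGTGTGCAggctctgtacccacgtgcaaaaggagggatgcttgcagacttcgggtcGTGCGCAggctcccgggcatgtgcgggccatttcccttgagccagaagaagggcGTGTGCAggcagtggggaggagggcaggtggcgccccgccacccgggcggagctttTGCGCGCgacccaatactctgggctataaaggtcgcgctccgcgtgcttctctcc
Slc30a1: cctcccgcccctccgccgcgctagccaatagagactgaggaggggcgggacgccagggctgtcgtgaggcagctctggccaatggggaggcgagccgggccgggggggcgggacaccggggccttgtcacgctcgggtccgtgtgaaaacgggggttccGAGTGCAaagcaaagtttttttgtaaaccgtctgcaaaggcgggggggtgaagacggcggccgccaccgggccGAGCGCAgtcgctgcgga
Mt1 held 6 matches, Mt2A 4 and Slc30a1 2. Of 33465 RefSeq rat promoters of the same length, 4.9% held at least 2 matches, 0.266% at least 4 and 0.0269% at least 6. A match is a run of letters and not evidence of binding in these cells. Promoters were matched for 8 of the 10 genes, all but Fth1 and Ftl1. Tfrc held 3 matches, where matches on opposite strands overlap at a palindrome, Mtf1 held 2, and Slc11a2, Slc40a1 and Ireb2 held 0.

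Mt1 is read by 1 probe printed 10 times on each array. Its values had a lowest of 4.10, a median of 4.67 and a highest of 4.88 on the fipronil arrays, against 3.56, 3.97 and 4.94 on the control arrays. The groups overlapped, because control replicates 5 and 6 on slide 2 were the highest of all 12 arrays while control replicates 2 and 3 on slide 1 were the lowest. The spread of the 10 spots within an array, an SD with a median of 0.0923 and a range of 0.0551 to 0.200, was smaller than the SD of 0.61 among control arrays. The group means were 4.58 ± 0.28 on the fipronil arrays and 4.18 ± 0.61 on the control arrays (SD, n = 6 each), a difference of 0.40 ± 0.25 (SE, adjusted p = 0.337). On slide 1 the fipronil arrays had 4.10 and 4.41, against 3.56 and 3.70 on the control arrays, a difference of 0.62 (adjusted p = 0.322 with the slide block).

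Mt2A had a lowest of 6.39, a median of 6.53 and a highest of 6.58 on the fipronil arrays, against 6.15, 6.33 and 6.51 on the control arrays. The groups overlapped in the middle of the range, with the fipronil arrays of slide 1 highest and the control arrays of slide 1 lowest. The difference was 0.18 ± 0.10 (adjusted p = 0.261). Within slide 1 it was 0.40, from 6.53 and 6.58 on the fipronil arrays and 6.15 and 6.16 on the control arrays (adjusted p = 0.170 with the slide block). Between the fipronil arrays of slide 3 and the control arrays of slide 2 it was 0.077. For Mt1 and Mt2A alike, the difference was positive within slide 1 and across slides 2 and 3.

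Mtf1, which encodes the zinc-sensing factor itself, was read by 3 probes, of which 1 was well above background on all 12 arrays and was tested. It had a lowest of -3.98, a median of -3.09 and a highest of -2.30 on the fipronil arrays, against -3.10, -2.74 and -2.40 on the control arrays. The lowest 2 of the 12 arrays were the fipronil arrays of slide 1, and the highest was fipronil replicate 2 on slide 3. The difference was -0.38 ± 0.27 over all arrays (adjusted p = 0.399), -1.37 on slide 1 (adjusted p = 0.0938 with the slide block) and 0.12 across slides 2 and 3. Without fipronil replicate 7, the lowest array, the difference over the others was -0.20. The other 2 Mtf1 probes were well above background on 0 and 2 arrays and were not tested. In that order they gave 0.65 and 0.58 over all arrays, opposite in sign to the tested probe. On slide 1 they gave -0.74 and -0.25, of the same sign as the tested probe.

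Slc30a1 encodes ZnT1, which moves zinc out across the plasma membrane. Its values had a lowest of -3.18, a median of -3.15 and a highest of -2.44 on the fipronil arrays, against -3.03, -2.83 and -2.49 on the control arrays. Fipronil replicate 3 was the highest of the 12 arrays, and 4 of the other 5 fipronil arrays were lower than every control array. The difference was -0.20 ± 0.15 (adjusted p = 0.424) over all arrays, -0.077 on slide 1 and -0.25 across slides 2 and 3.

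Over all 12 arrays the 2 ferritin subunits differed in the sign of their mean difference, positive for the light chain and negative for the heavy chain. Within slide 1 both were positive, at 0.87 and 0.11, and neither passed the threshold. Ftl1, the light chain, promotes formation of the iron mineral inside the shell. It was read by 2 probes that share 53 of their 60 bases. The first 30 bases of the shared stretch show how nearly the probes coincide, which makes them 1 measurement rather than 2.
Ftl1 shared stretch: accgccctggagcctctcccaagtcttgga
The array files place 1 of these probes on another chromosome of an older assembly, so signal from a near-identical sequence elsewhere cannot be set apart from that of Ftl1. The probe used had a lowest of 7.90, a median of 8.06 and a highest of 8.45 on the fipronil arrays, against 7.40, 7.67 and 7.92 on the control arrays. The groups overlapped by 1 array: control replicate 5 stood above fipronil replicates 1 and 2 and below the other 4. The group means were 8.13 ± 0.24 on the fipronil arrays and 7.66 ± 0.20 on the control arrays (SD, n = 6 each), a difference of 0.47 ± 0.14 with a 95% interval of 0.18 to 0.76 (adjusted p = 0.0597). On slide 1 the fipronil arrays had 8.39 and 8.45, against 7.40 and 7.71 on the control arrays, a difference of 0.87 (adjusted p = 0.0938 with the slide block). Across slides 2 and 3 it was 0.27. The second probe gave 0.42 over all arrays and 0.94 on slide 1.

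Ftl1 passed the threshold under 5 of 27 alternatives. With quantile normalization of the same signals the difference was 0.51 (adjusted p = 0.0321), with normexp background and quantile normalization 0.55 (adjusted p = 0.0168), and 0.51 in the log2 values that the authors quantile-normalized (adjusted p = 0.0364). With probes tested only when well above background on all 12 arrays it stayed at 0.47 and the adjusted p was 0.0427. With no filter on dim probes it also stayed at 0.47 and the adjusted p was 0.0279, so these 2 settings changed only which other probes were tested. Over all genes the 5 settings called, in turn, 710, 1015 and 713 of 13542, 965 of 10609 and 16313 of 36181. Its sign was positive in all 27 alternatives run, and with slide as a random block it was 0.60 (adjusted p = 0.110).

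Fth1, the heavy chain with the ferroxidase activity of ferritin, was read by 2 probes that cover nearly the same stretch of the transcript and match in order at 50 of 60 bases, so they too are close to 1 measurement. The longest run they share without a difference, 19 bases, is given to identify the site.
Fth1 shared stretch: ttttctataagttgcacca
The probe used had a lowest of 6.28, a median of 6.52 and a highest of 6.92 on the fipronil arrays, against 6.65, 6.78 and 7.04 on the control arrays. The 4 fipronil arrays of slide 3 were the lowest of the 12, while those of slide 1 lay among the control arrays. The difference was -0.25 ± 0.12 (adjusted p = 0.224) over all arrays, -0.44 across slides 2 and 3 and 0.11 on slide 1. The second, near-identical probe gave -0.20 over all arrays and 0.21 on slide 1.

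Tfrc, the transferrin receptor that brings in transferrin-bound iron, varied most among the 10 genes, with an SD of 0.81 over the 12 arrays. It had a lowest of -0.26, a median of 1.18 and a highest of 2.47 on the fipronil arrays, against 0.66, 1.09 and 1.94 on the control arrays. The fipronil arrays held both ends of the range: replicates 7 and 8 on slide 1 were the lowest of all 12 and replicates 1 and 2 on slide 3 the highest. The 2 spots of its probe differed little within an array (SD with a median of 0.0292 and at most 0.0952), so spot noise was small beside this spread. The difference over all arrays was 0.056 ± 0.43 with a 95% interval of -0.87 to 0.99 (adjusted p = 0.949). On slide 1 the fipronil arrays had -0.26 and 0.23, against 1.37 and 1.94 on the control arrays, a difference of -1.67 ± 0.44 in the fit with the slide block (adjusted p = 0.118). Across slides 2 and 3 the difference was 0.92, so the 2 sets of arrays gave opposite signs and the value over all arrays is a balance between them.

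Slc11a2 encodes DMT1, which carries ferrous iron across the plasma membrane and out of endosomes. It had a lowest of 2.10, a median of 2.28 and a highest of 2.35 on the fipronil arrays, against 2.40, 2.60 and 2.66 on the control arrays. On this probe all 6 fipronil arrays were lower than all 6 control arrays. The group means were 2.25 ± 0.10 on the fipronil arrays and 2.55 ± 0.11 on the control arrays (SD, n = 6 each), a difference of -0.30 ± 0.10 (adjusted p = 0.0765). It was -0.29 on slide 1 and -0.31 across slides 2 and 3. With the slide block the 95% interval was -0.64 to 0.063 (adjusted p = 0.342). On the probe used, both sets of arrays thus gave nearly the same size, which the 2 arrays of each treatment on slide 1 measure with a wide error. The array carries its probe a second time under another name, with the same 60 bases, and this copy gave -0.34 over all arrays and -0.21 on slide 1, with an adjusted p of 0.116 over all tested probes. On the copy the groups overlapped, its highest fipronil value being 2.39, against a lowest control value of 2.37, and on single arrays the copies differed by up to 0.59. The shared probe begins as follows, the first 30 bases being given to identify it.
Slc11a2 probe: tgttagtgagcctctgacagcttgtgaact

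Slc40a1 encodes ferroportin, the cell's iron exporter. Of its 2 probes, 1 was well above background on 0 fipronil and 3 control arrays and was not tested. That probe gave -0.39 over all arrays and -0.67 on slide 1. The tested probe was dim too, well above background on 1 of 6 fipronil arrays and 5 of 6 control arrays. Its values had a lowest of -5.48, a median of -4.62 and a highest of -4.01 on the fipronil arrays, against -4.36, -3.94 and -3.31 on the control arrays. The lowest 3 arrays were fipronil replicates 1, 3 and 4 on slide 3, where signals were the dimmest, and the other 3 fipronil arrays overlapped the control arrays. The difference was -0.76 ± 0.29 (adjusted p = 0.125) over all arrays, -1.05 across slides 2 and 3 and -0.17 on slide 1. It was 0.56, with an adjusted p of 0.00369, when the raw signals were corrected with normexp before the same scaling, so neither sign nor call is independent of how the background was handled.

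Ireb2 encodes IRP2, the iron regulatory protein that is degraded when iron is plentiful. The 1 tested probe of its 3 had a lowest of -0.61, a median of 0.37 and a highest of 1.09 on the fipronil arrays, against -0.29, 0.60 and 1.05 on the control arrays. Fipronil arrays were both the highest (replicate 1, slide 3) and the lowest (replicate 8, slide 1), and the groups overlapped throughout. The difference was -0.12 ± 0.32 (adjusted p = 0.845) over all arrays, -0.97 on slide 1 (adjusted p = 0.317 with the slide block) and 0.30 across slides 2 and 3.

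The difference on slide 1 had the same sign as that across slides 2 and 3 for 6 of the 10 genes: Mt1, Mt2A, Slc30a1, Ftl1, Slc11a2 and Slc40a1. The share of all genes with equal signs was not counted, so this number is not read as a feature of the genes. For Slc30a1 (-0.077) and the dim Slc40a1 (-0.17) the slide 1 difference was small. The signs were opposite for Mtf1, Fth1, Tfrc and Ireb2. In the fit with slide as a fixed block the 95% interval excluded 0 for Mt2A, Mtf1, Ftl1 and Tfrc before adjustment over all genes. Over all 12 arrays it excluded 0 for Ftl1, Slc11a2 and Slc40a1.

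**Figure D2:**
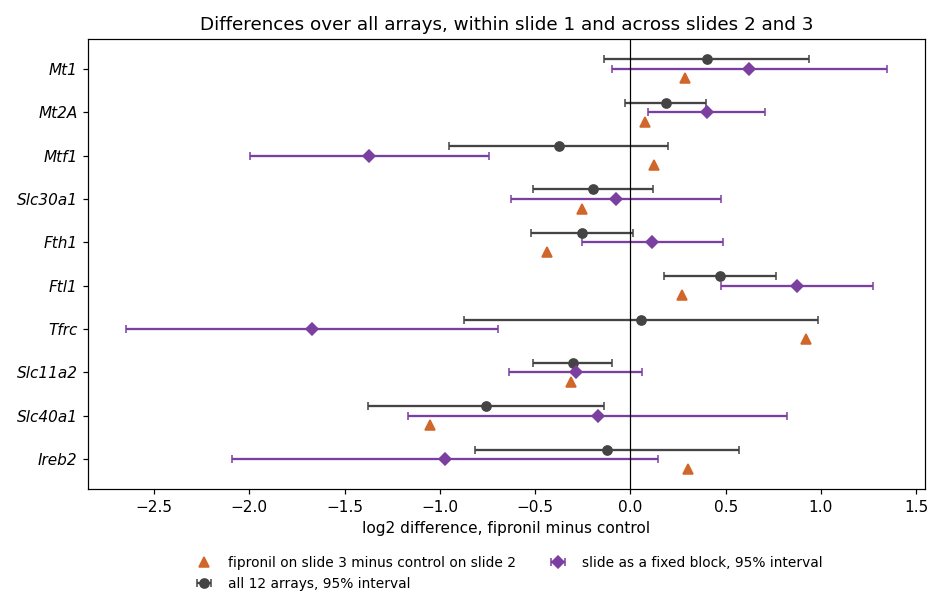
Log2 difference, fipronil minus control (horizontal axis), for each of the 10 genes (rows). Circles with bars are the fit over all 12 arrays with its 95% interval, diamonds with bars the fit with slide as a fixed block, and triangles the 4 fipronil arrays of slide 3 minus the 4 control arrays of slide 2, drawn without an interval. Tfrc has its diamond at -1.67 and its triangle at 0.92, whereas the 3 estimates for Slc11a2 lie between -0.31 and -0.29.

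Other treatments of the signal moved some of these differences across 0. With normexp background and 75th percentile scaling the median difference over all genes was 0.17, against -0.077 as reported, and 4 of the 10 genes passed, where 6774 of the 13542 genes did. Slc30a1 at 0.45 and Slc40a1 at 0.56 were higher, and Fth1 at -0.57 and Slc11a2 at -0.51 were lower. Under that setting Mt2A was -0.052 and Mtf1 0.39, both opposite in sign to the reported values. None of the 10 passed when any one array was left out. Mt1, Ftl1 and Slc11a2 kept the sign of their difference in all 27 alternatives.

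**Figure D3:**
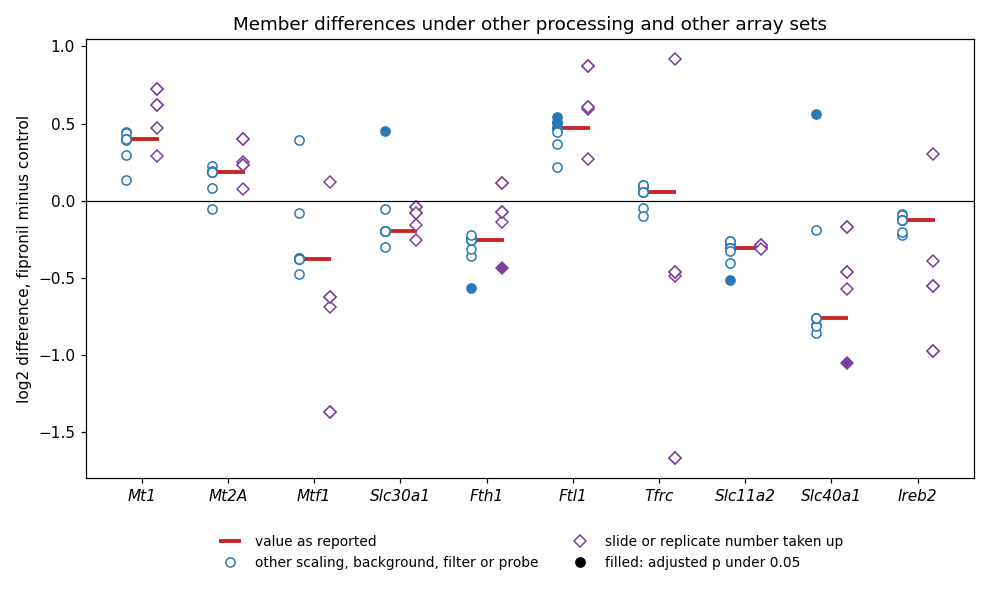
Log2 difference, fipronil minus control (vertical axis), of the 10 genes under each alternative except those that leave out 1 array. Red bars are the values as reported, blue circles other scalings, background corrections, filters or probe choices, and purple diamonds fits that use slide or replicate number or fewer slides. Filled symbols have an adjusted p under 0.05; Ftl1 has 5 of them, the most of the 10 genes.

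For the 3 genes with the largest SD over the 12 arrays, Tfrc, Slc40a1 and Ireb2, the tested genes with the most similar profiles were sought among 9539 others with a symbol, by the root mean square difference of the centred log2 values over 12 arrays. For Tfrc these were Cct8 at 0.289, Gnl3 at 0.296 and Ranbp6 at 0.296, small values beside the SD of Tfrc of 0.81. Their differences on slide 1 were -1.23, -1.28 and -1.46, and over all arrays 0.11, 0.17 and -0.064. Genes chosen by likeness over the same 12 arrays, slide 1 included, resemble the gene they are set beside on slide 1 by that choice. How many of all genes share the profile was not counted. For Ireb2 the most similar were Asxl2 at 0.115, Rbm27 at 0.148 and Alg10 at 0.151, with slide 1 differences of -0.87, -0.99 and -1.22. For the dim Slc40a1 they were Ubd at 0.313, Epop at 0.330 and Zfp617 at 0.333.

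The wider metal handling genes were described by 5 lists, of which 75 genes were tested and 5 passed, 2 higher and 3 lower, close to the 5.01% of all genes that passed. The genes that passed are therefore given as single values and not as a feature of the lists. In zinc transport and other metallothioneins, 15 of 23 listed genes were tested, 0 were higher and 1 was lower, with a median difference of -0.037 over all arrays and -0.10 on slide 1. The gene that passed as lower was Slc30a4, which encodes the vesicular zinc transporter ZnT4. It had a lowest of -4.21, a median of -3.48 and a highest of -2.46 on the fipronil arrays, against -2.92, -2.58 and -2.39 on the control arrays, and a difference of -0.85 ± 0.23 over all arrays (adjusted p = 0.0483) and -1.33 on slide 1. It was well above background on 2 of 6 fipronil arrays and 6 of 6 control arrays, so it entered the test mainly through the group where it is high, and the groups overlapped. With normexp background and 75th percentile scaling its difference was 0.27, of the opposite sign. Mt3 and Mt4, the metallothioneins of brain and of squamous epithelium, were not well above background on enough arrays to be tested.

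In copper handling, 9 of 12 listed genes were tested, 0 were higher and 1 was lower, with a median of -0.22 over all arrays and 0.11 on slide 1. Sco1, a chaperone that delivers copper to cytochrome c oxidase, passed as lower. Its lowest value was -1.996, with a median of -1.56 and a highest of -1.36 on the fipronil arrays, against -1.16, -1.08 and -0.87 on the control arrays. The groups did not overlap, with every fipronil array lower, as for 2.55% of all genes. The difference was -0.56 ± 0.12 over all arrays (adjusted p = 0.0252) and -0.32 on slide 1.

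Among the iron uptake, storage and export partners, 14 of 27 listed genes were tested, 1 was higher and 0 were lower, with a median of -0.16 over all arrays and 0.034 on slide 1. Mcoln1, the lysosomal channel TRPML1 that releases iron and calcium, passed as higher. Its lowest value was 0.35, with a median of 0.85 and a highest of 1.07 on the fipronil arrays, against -0.10, 0.10 and 0.42 on the control arrays. The groups overlapped slightly, and the difference was 0.66 ± 0.15 over all arrays (adjusted p = 0.0270) and 0.51 on slide 1. In heme synthesis, transport and breakdown, 16 of 18 were tested and none passed in limma, where 5 of 16 had an unadjusted p under 0.05, against 25.0% of all genes. The median was -0.044 over all arrays and 0.19 on slide 1. The 2 brightest of that list were Alad, the second enzyme of heme synthesis, at -0.37 over all arrays (adjusted p = 0.301) and 0.44 on slide 1, and Urod, which decarboxylates uroporphyrinogen, at 0.13 over all arrays (adjusted p = 0.534) and 0.26 on slide 1.

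In iron-sulfur cluster assembly, 21 of 22 listed genes were tested, 1 was higher and 1 was lower, with a median of -0.061 over all arrays and 0.054 on slide 1, where the median of all genes was -0.016. Glrx5, the mitochondrial glutaredoxin that passes on new clusters, passed as lower. Its lowest value was 0.0998, with a median of 0.21 and a highest of 0.68 on the fipronil arrays, against 0.69, 0.93 and 1.16 on the control arrays. The groups narrowly did not overlap, with every fipronil array lower, as for 2.55% of all genes. The difference was -0.60 ± 0.13 over all arrays (adjusted p = 0.0268) and -0.23 on slide 1. Nubpl, an assembly factor of respiratory complex I, passed as higher. Its lowest, median and highest were -0.32, -0.029 and 0.13 on the fipronil arrays, against -0.70, -0.56 and -0.14 on the control arrays. The difference was 0.46 ± 0.12 over all arrays (adjusted p = 0.0480) and 0.32 on slide 1. None of the 5 genes passed in the fits that block on slide (adjusted p = 0.128 to 0.491 as a fixed and 0.0968 to 0.203 as a random block). Leaving out each array in turn gave 12 fits: Sco1 passed in 9, Mcoln1 in 5, Glrx5 in 4, Nubpl in 3 and Slc30a4 in 2.

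**Figure D4:**
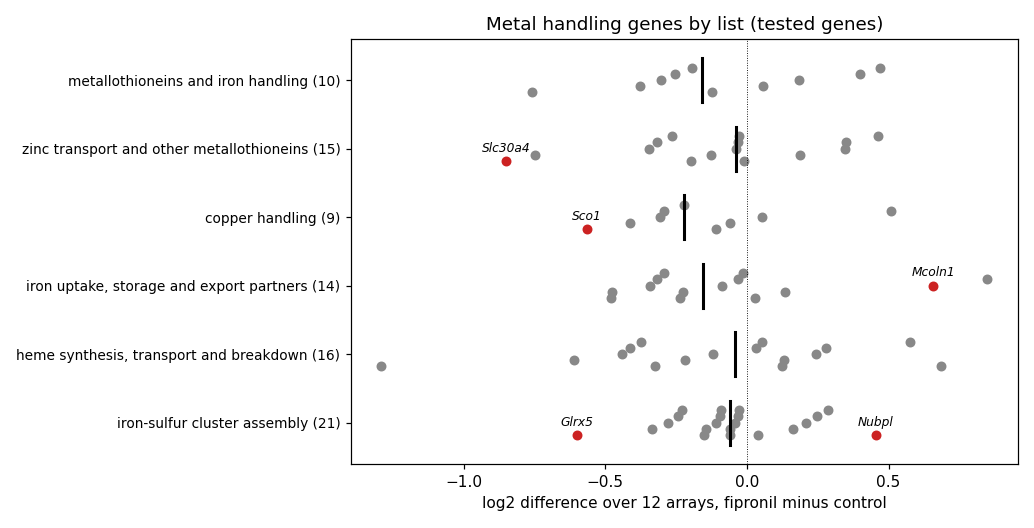
Log2 difference over 12 arrays, fipronil minus control (horizontal axis), of each tested gene of the 6 groups of metal handling genes (rows, number tested in brackets). Grey points did not pass, red points passed an adjusted p of 0.05 and are named, and black bars are medians. No gene of the top row is red. Of the 5 named genes, Slc30a4, Sco1 and Glrx5 lie at the low end of their rows, Nubpl at the high end of its row, and Mcoln1 at 0.66 inside Slc25a37, which did not pass.

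Markers of the labelled cell type were sparse. Of 10 dopaminergic neuron markers 2 were tested and 0 passed. Th, which makes the dopamine precursor, was well above background on 12 of 12 arrays. It had a lowest of -2.27, a median of -1.91 and a highest of -1.06 on the fipronil arrays, against -1.93, -1.29 and -1.16 on the control arrays, a difference of -0.48 (adjusted p = 0.152) that was 0.096 on slide 1. Aldh1a1, the other tested marker, was well above background on 2 of 6 fipronil and 6 of 6 control arrays. Its difference was -0.84 (adjusted p = 0.0678) over all arrays and -0.98 on slide 1. Slc6a3, the dopamine transporter, and Ddc, En1, Foxa2 and Pitx3 were well above background on 0 arrays, Nr4a2 on 1, and Lmx1b and Slc18a2 on at most 2. The summed level of the 2 tested markers, Th and Aldh1a1, in multiples of the array's 75th percentile, was 0.249 to 0.543 on the fipronil arrays. On the control arrays it was 0.389 to 0.575, and the untested markers are not part of the sum. Of other cell types, 1 of 6 astrocyte, 2 of 6 oligodendrocyte, 1 of 6 microglia and leukocyte and 2 of 6 endothelial markers were tested and 0 passed. Among those tested, Aldoc (astrocyte), Cx3cr1 (microglia) and Flt1 (1 of the 2 endothelial) were well above background on 12 arrays, and Cnp and Mag (oligodendrocyte) on 11 and 8. Summed in the same way, the tested endothelial markers gave 3.48 to 4.95 on the fipronil and 3.46 to 4.85 on the control arrays, above the dopaminergic sum. Flt1, at mean log2 values of -1.12 and -1.81, was the smaller part. The astrocyte marker gave 0.386 to 1.08 and 0.519 to 1.03, the microglia marker 0.593 to 0.843 and 0.449 to 0.804. The oligodendrocyte sum was 0.116 to 0.276 and 0.168 to 0.322. Gfap, Mbp, Aif1 and Pecam1 were well above background on 0 arrays. Their part in the differences above was not tested.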

How the data were processed

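Per the submitters' processing notes, the authors quantified the spots with Agilent Feature Extraction 10.7 (10.1.1.1 in the file headers). Per the file headers, the processed signal is a background-subtracted, detrended intensity, mean signal and local background are raw intensity values, and flags are other values of 0 or 1. A table deposited beside the array files gives quantile-normalized log2 signals, with a floor of 1.5, not centred (median 3.045). Each of its columns had a Spearman correlation of at least 0.9946 with its own array and at most 0.9407 with another.

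Each array's 75th percentile over all spots that are not controls was subtracted. Outlier spots (323 to 711 per array) were then left out, except where all spots of a probe were flagged, and replicate spots were averaged. Of 45598 probes, 16291 passed the filter, and the brightest stood for each of 13542 genes. Names came from RefSeq GRCr8 by accession (21109 probes), symbol (6684) or synonym (424), and 17381 kept their own. limma 3.58.1 in R 4.3.3 (lmFit, eBayes, two-sided, Benjamini-Hochberg over all genes tested) was tested on simulated data. Replicate numbers 2, 3, 7 and 8 occur in both groups, with deviations correlating at 0.43, 0.08, -0.11 and -0.31 over genes, and were not used as pairs. The members and lists were chosen with earlier results of these data known. Genes named from a list were up to 4 that passed, by adjusted p, or the 2 brightest where none did, with Th and Slc6a3 named throughout. Precision is limited by having 6 arrays a group.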

Additional observations from a re-analysis of the deposited data

Results flagged for a closer look

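In 1 of 34 groups of 6 arrays tested for a lone extreme value, covering 17 named genes, 1 array stood apart from the rest of its group by more than Dixon's critical value for 6 samples. It was control replicate 5 for Nubpl, at -0.14, the highest of 6 control values whose median was -0.56. Chance flags about 1 in 20 such groups.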

How the results depend on the processing

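Over all genes 678 passed, 303 higher and 375 lower. The number was 6774 with normexp background and 75th percentile scaling (5113 higher, 1661 lower), 16313 with no filter on dim probes (15088 higher, 1225 lower, median of all genes 0.55), 12 with slide as a fixed block (8 higher, 4 lower), 21 with slide as a random block, 0 with the replicate block on the 8 arrays with shared numbers and 1 on those arrays without it, 0 on slide 1 alone and 3044 on slides 2 and 3 alone. It was 585 with median scaling (150 higher, 435 lower, median of all genes -0.18), and 228 to 2022 without 1 array, highest without fipronil replicate 8.

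Of the 10 genes, 0 passed as reported and in every fit without 1 array. The number was 1 with quantile normalization, 1 with normexp and quantile normalization and 1 in the authors' table. It was 1 of 9 with probes required on all 12 arrays, and each time the gene was Ftl1. Over all genes those 4 settings called, in turn, 710, 1015 and 713 of 13542 and 965 of 10609. With normexp and the 75th percentile it was 4, where 6774 of 13542 genes passed. With no filter it was 2 (Ftl1 and Slc40a1), where 16313 of 36181 did. On slides 2 and 3 alone it was 2 (Fth1 at -0.44 and Slc40a1 at -1.05), where 3044 of 13542 did. The replicate block gave 0.

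Of the 75 tested genes in the 5 wider lists, 5 passed. The number was 8 with normexp and quantile normalization, where 1015 of all 13542 genes passed. With normexp and the 75th percentile it was 33, where 6774 of 13542 did. With probes required on all 12 arrays it was 8 of 63, where 965 of 10609 genes did. With no filter it was 26 of 100, where 16313 of 36181 did, and on slides 2 and 3 alone 21, where 3044 of 13542 did. It was 0 with either slide block, with the replicate block, on the 8 arrays with shared numbers without that block, and on slide 1 alone. It was 0 to 12 without 1 array: 0 without fipronil replicate 3 or control replicate 7, and 12 without fipronil replicate 8.

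Signs turned with normexp and the 75th percentile for Mt2A (-0.052), Mtf1 (0.39), Slc30a1 (0.45), Tfrc (-0.10) and Slc40a1 (0.56). They turned on slides 2 and 3 alone for Mtf1 (0.12) and Ireb2 (0.30), and on slide 1, alone or as the fixed block, for Fth1 (0.11) and Tfrc (-1.67). Tfrc also turned with median scaling (-0.045), with the random block (-0.49) and on the 8 arrays with or without the replicate block (-0.46). Without 1 array Tfrc ranged between -0.20 and 0.35, below 0 when control replicate 5 or 6, or fipronil replicate 1 or 2, was left out, and Ireb2 between -0.28 and 0.061, above 0 when fipronil replicate 8 was left out. The cause was not tested. The slides 2 and 3, slide 1 and unblocked 8-array fits were chosen after seeing the data. Dim probes, Slc40a1 among them, limit what the arrays can show.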
